A study of Mus musculus with 69 samples.

Results

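The genes described here encode the MHC class II antigen-presentation machinery and 3 co-stimulation proteins of antigen-presenting cells. They were taken by symbol: Cd74, H2-Aa, H2-Ab1, H2-Eb1, H2-DMa, H2-DMb1, Ciita, Cd86, Cd83 and Cd40. All 10 had a row in each of 3 mouse count tables, which hold 54532 rows for the gardiquimod and microglia experiments and 54429 rows for the inhibitor experiment. The study asks how Tlr7, a receptor for single-stranded RNA in endosomes, bears on sex differences in demyelination, and it deposited 69 bulk RNA libraries. In the first experiment, hippocampus was taken from WT mice given saline or gardiquimod, a small-molecule TLR7 agonist, with 7 libraries in each sex and treatment. The males were 12.12 months old and the females 9.60 months old, so sex and age cannot be told apart there. In the second, primary microglia from postnatal pups (d1-3), WT or TLR7:-/- (written KO below), received DMSO or myelin, with 3 libraries for each sex, genotype and treatment. The third holds hippocampus from mice labelled PSUK+, aged 5.5 to 6.85 months: 3 female and 3 male control libraries, and 5 female and 6 male libraries given an inhibitor that the labels do not name. All 4 groups of the third experiment carry the PSUK+ genotype, and the age of 1 of its libraries has no unit. Dose, duration, the strain and the makeup of the Tlr7 knockout are not given in the labels. Nothing in the labels says whether libraries of a group came from separate animals or cultures, and the p-values cover the spread from library to library only.

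MHC class II molecules are pairs of an alpha and a beta chain that present peptides from endosomes to CD4+ T cells. The invariant chain, Cd74, guides new class II molecules to endosomes and blocks their groove, and H2-DM, made of H2-DMa and H2-DMb1, then helps to exchange the last invariant chain fragment for peptide. The coactivator Ciita is the master regulator of these genes and is induced by interferon gamma, whereas Cd86, Cd83 and Cd40 belong to the co-stimulatory side: Cd86 binds CD28, Cd83 is a marker of activated antigen-presenting cells, and Cd40 receives CD40 ligand from T cells. In the brain, resting microglia carry little class II, while macrophages of the meninges and choroid plexus carry more.

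Class II genes are known for a shared promoter module, in which an X box bound by RFX factors lies ahead of a Y box bound by NF-Y, and Ciita acts on the proteins bound there. RefSeq promoter windows (build GRCm38.p6, 250 bases before to 50 after each gene's start) were at hand for 4 of the 10 genes. The bases before the RefSeq start of the 3 that hold both elements are shown to let a reader compare the module, with the X motif CTNGNAACT and the Y motif TGATTGG in capitals. The first is at chr17:34153071-34153190 on the plus strand, the second at chr17:34287824-34287943 on the minus strand and the third at chr17:34305747-34305866 on the plus strand. The deposited table starts H2-DMb1 at 34153072, so the stretch shown for it lies before the RefSeq start but within the gene as deposited.
H2-DMb1: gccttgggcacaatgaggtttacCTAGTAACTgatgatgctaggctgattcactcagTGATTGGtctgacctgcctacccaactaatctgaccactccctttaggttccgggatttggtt
H2-Aa: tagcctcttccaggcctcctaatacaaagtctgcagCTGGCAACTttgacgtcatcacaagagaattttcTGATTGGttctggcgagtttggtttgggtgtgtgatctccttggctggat
H2-Eb1: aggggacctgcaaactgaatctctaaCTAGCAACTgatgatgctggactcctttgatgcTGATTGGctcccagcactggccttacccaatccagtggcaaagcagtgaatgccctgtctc

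The X motif began 84, 94 and 97 bases before the RefSeq start of H2-Aa, H2-Eb1 and H2-DMb1, and the Y motif followed 34, 33 and 34 bases further on. Among all 32851 promoter windows, the X motif was found on either strand in 3.47%, the Y motif in 7.23%, and an X motif followed by a Y motif within 60 bases in 0.0213%, which is 7 windows. The pattern was chosen after these sequences were seen, so the match is a description, and neither motif overlaps the other. The 2 RefSeq windows of H2-DMa end at 34122881 and 34125567, well before the deposited start of that gene at 34135182, and are not used here. In microglia given myelin, as described further on, H2-DMb1 was called lower in each group (in 1 of the 4 with the covariates given there). H2-Aa was called higher in female KO cells alone, a call lost with the same covariates, and H2-Eb1 was called in none.

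Libraries held 14.3 to 23.5 M (mega) counts, with medians of 16.6, 16.2 and 15.7 M in the gardiquimod, microglia and inhibitor experiments. A gene is called here when its Benjamini-Hochberg adjusted p from edgeR's quasi-likelihood test is under 0.05 over all genes tested, and levels are CPM, in which each count is divided by its TMM-adjusted library size. These are 3′-end libraries with 1 read per transcript end, so CPM were compared between genes without dividing by length. Tlr7 itself checks the labels: it lay at 167 to 197 CPM in every WT microglia library and at 1.25 to 2.76 CPM in every KO library. Microglia markers were abundant in the cultures (summed level of 10 genes from 2131 to 3097 CPM). Of the 8 T and NK cell markers, 7 had no count in 7 of the 8 culture groups, and Cd28 was the exception. Hippocampal libraries varied widely in choroid plexus markers, whose 5-gene sum ran from 151 to 6923 CPM in the gardiquimod experiment. In the inhibitor experiment, 2 libraries labelled male inhibitor held Xist, at up to 11.1 CPM against 259 CPM or more in every library labelled female. In hippocampal tissue, fewer cells of a type and less RNA per cell cannot be told apart.

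In hippocampus the co-stimulatory gene Cd83 and the peptide editor subunit H2-DMa were the most abundant of the 10. The means of the 4 gardiquimod-experiment groups lay between 15.7 and 17.2 CPM for Cd83 and between 11.3 and 12.6 CPM for H2-DMa. Cd74 came next at 4.25 to 10.8 CPM, followed by H2-Eb1 (2.12 to 5.35 CPM), H2-Aa (1.92 to 4.60 CPM) and H2-Ab1 (1.68 to 4.21 CPM), whose ranges overlapped. Cd86 at 2.98 to 3.56 CPM and H2-DMb1 at 2.23 to 2.99 CPM lay within the same range as the class II chains. Ciita was at 1.24 to 1.62 CPM and Cd40 was lowest, at 0.409 to 0.636 CPM, which is 3 to 19 counts per library. The inhibitor experiment gave the same first 4 genes in the same order, from Cd83 with group means of 13.9 to 17.3 CPM to H2-Eb1 with 2.48 to 3.36 CPM.

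The order in cultured microglia was different. Cd74 had group means from 17.5 to 95.1 CPM, Cd86 from 38.1 to 48.6 CPM, Cd83 from 18.3 to 50.7 CPM, H2-DMa from 15.8 to 47.4 CPM and H2-DMb1 from 23.2 to 32.3 CPM. By contrast, the chains that form the presenting molecule were at low levels. H2-Aa was at 0.210 to 0.996 CPM, H2-Ab1 at 0.680 to 1.98 CPM and H2-Eb1 at 0.591 to 1.03 CPM, or 2 to 43 counts per library. Ciita had 0 to 8 counts per library, 72 in all over the 24 libraries, and did not pass the filter on low counts, so 9 of the 10 genes were tested in microglia. Cd40 was at 1.14 to 2.02 CPM. Cultured microglia thus held high Cd74 and H2-DM transcripts beside very few transcripts of the chains they serve.

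**Figure D1:**
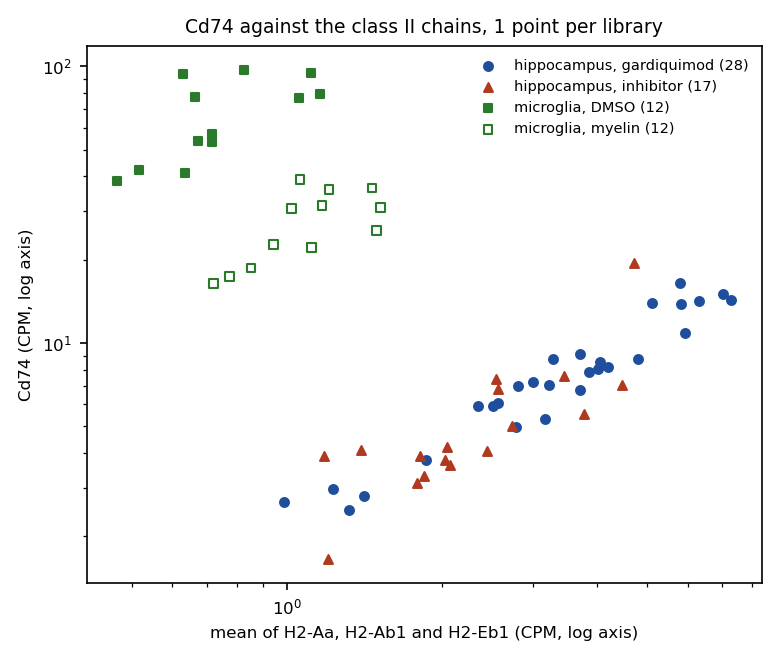
Cd74 (vertical, CPM, log axis) against the mean of H2-Aa, H2-Ab1 and H2-Eb1 (horizontal, CPM, log axis), 1 point per library, for hippocampus of the gardiquimod (28) and inhibitor (17) experiments and for microglia given DMSO or myelin (12 each). The hippocampal libraries lie along a band in which Cd74 is 1.38 to 4.14 times the chain mean, and the microglia lie above it at 17.1 to 150 times.

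The ratio of Cd74 to the mean of the 3 chains puts a number on this. It was 2.21 ± 0.320 (SD, n = 28) in the gardiquimod experiment, with a range of 1.68 to 2.83. The inhibitor experiment gave 2.20 ± 0.750 (SD, n = 17). In microglia the group means of the ratio ran from 20.4 in female KO cells given myelin to 117 in male WT cells given DMSO, and every one of the 24 microglia libraries lay above every hippocampal library. The plot of Cd74 against the chains shows these as 2 separate sets of points. The tables were scaled separately, but this ratio is formed within a library.

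As to position, per the deposited tables the 5 genes H2-DMa (34135182 to 34139101), H2-DMb1 (34153072 to 34160230), H2-Ab1 (34263209 to 34269418), H2-Aa (34282744 to 34287827) and H2-Eb1 (34305877 to 34316199) lie together in the MHC on chromosome 17. Ciita (10480059 to 10528418) and Cd86 (36603869 to 36666081) are on chromosome 16, Cd83 (43784775 to 43803132) on chromosome 13, Cd40 (165055627 to 165072948) on chromosome 2 and Cd74 (60803848 to 60812646) on chromosome 18. All are protein-coding. Dexi overlaps Ciita on the opposite strand and H2-DMb2 is a close paralog of H2-DMb1; the counting rule for strand and shared reads is not given in the sources used here, so Ciita and H2-DMb1 are less certain than the rest.

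Gardiquimod and the class II genes in male hippocampus come first. In males, H2-Eb1 was 2.52 times as high after gardiquimod and was the only one of the 10 genes called, and the invariant chain and the other 2 chains had fold changes of about the same size that were not called. H2-Eb1 read 1.38, 2.73, 2.22, 3.51, 2.45, 0.803 and 1.74 CPM in the saline males and 6.02, 4.91, 6.95, 4.84, 2.73, 4.80 and 7.22 CPM in the gardiquimod males. The groups overlapped in 1 library: 6 of 7 gardiquimod males lay above the highest saline male. The group means were 2.12 ± 0.898 and 5.35 ± 1.53 CPM (SD, n = 7 each), the fitted log2 fold change was 1.33 ± 0.28 (SE), and edgeR's adjusted p was 0.0369. In this comparison 0.221% of all genes tested were called, against 1 of the 10.

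The other genes of the presenting complex were high in the same males without passing the threshold. Cd74 read 2.50 to 7.01 CPM in the saline males (median 3.77) and 5.92 to 16.4 CPM in the gardiquimod males (median 9.11), and 5 of the 7 treated values lay above the highest saline value. Its group means were 4.25 ± 1.75 and 10.8 ± 4.26 CPM (SD, n = 7 each), and its log2 fold change of 1.34 ± 0.32 (SE) had an edgeR adjusted p of 0.0662. H2-Aa, the alpha chain of I-A, had a log2 fold change of 1.26 ± 0.32 (adjusted p = 0.0768) and its partner H2-Ab1 one of 1.29 ± 0.37 (adjusted p = 0.104), each again with 5 of 7 treated libraries above all saline libraries. DESeq2 called Cd74, H2-Aa, H2-Ab1 and H2-Eb1. None of the other 6 genes was called. H2-DMa differed by 0.05 ± 0.09, H2-DMb1 by 0.26 ± 0.18, Cd86 by 0.03 ± 0.18, Cd83 by -0.11 ± 0.10 and Cd40, on few counts, by 0.51 ± 0.29 on the log2 scale (SE). Ciita differed by 0.19 ± 0.25 on 12 to 34 counts per library, with a 95% interval of -0.33 to 0.70. This interval lies below the fold changes fitted for the chains, but those have errors of their own. The difference between Ciita and the chains was not tested. The median over the 10 genes was 0.39, against -0.01 over all genes tested.

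**Figure D2:**
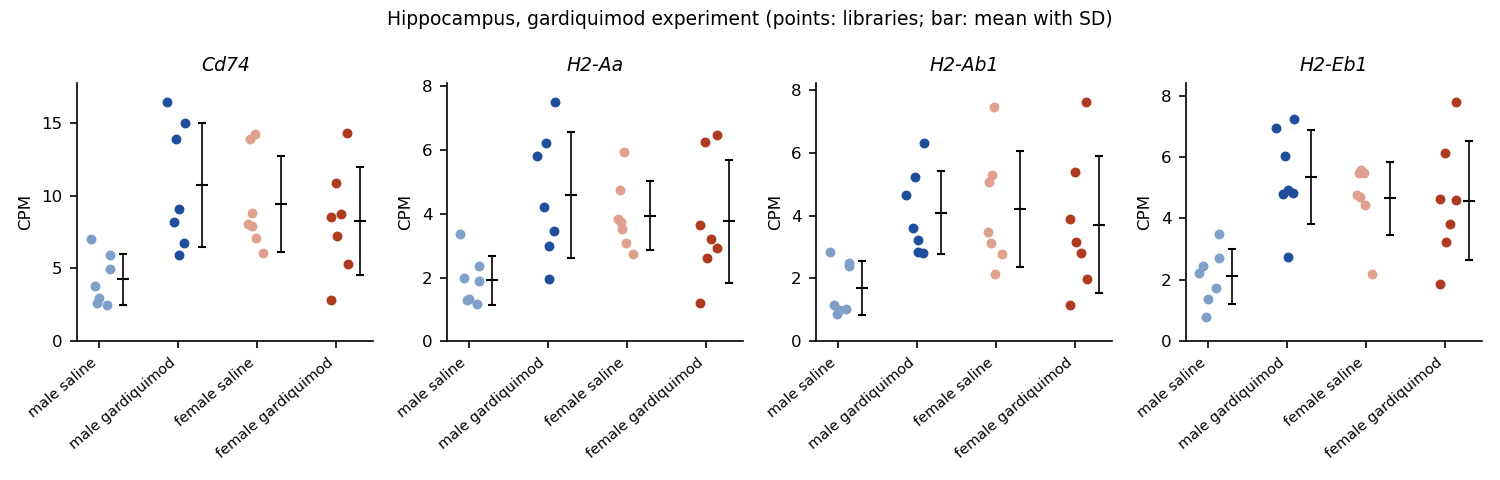
Levels (vertical, CPM) of Cd74, H2-Aa, H2-Ab1 and H2-Eb1 in hippocampus by sex and treatment (horizontal), 7 libraries a group as points with the mean and SD beside them. Saline males are lowest in all 4 panels, with Cd74 at 4.25 CPM on average against 8.26 to 10.8 CPM in the other 3 groups.

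Markers of macrophages at the brain's borders moved with these genes. The summed level of 8 border macrophage markers, which include Mrc1, Lyve1 and Pf4, ran from 7.17 to 17.2 CPM in saline males (median 10.2) and from 11.6 to 26.1 CPM in gardiquimod males (median 15.5). In females it ran from 9.13 to 28.03 CPM with saline (median 16.0) and from 6.59 to 16.5 CPM with gardiquimod (median 11.3). Saline males had the lowest median of this sum, as they had for Cd74. The 5-gene choroid plexus sum had medians of 358 and 4358 CPM in saline and gardiquimod males and of 3139 and 5322 CPM in the females. The sum of 8 T and NK cell markers ran from 0.834 to 1.51 CPM in saline males (median 1.26) and from 1.49 to 2.83 CPM in gardiquimod males (median 1.83), against medians of 1.19 and 1.01 CPM in saline and gardiquimod females. The 5-gene B cell sum had medians of 0.824 and 1.20 CPM in the males and of 1.24 and 0.906 CPM in the females. The part of the T, NK and B cell markers in these differences was not tested. The microglia marker sum overlapped widely, with medians from 375 to 410 CPM. With the border macrophage sum as a covariate, an alternative chosen after seeing the data, the H2-Eb1 difference in males was 0.95 (adjusted p = 0.385), and with Ttr, the leading choroid plexus gene, it was 1.03 (adjusted p = 0.321). Neither is called, and the call also ended with no filter on low counts (adjusted p = 0.0707) and in 8 of the 14 fits that left out 1 male library.

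In females gardiquimod left no gene of the 10 called, with 0.0232% of all genes called, none of the 10 at an unadjusted p under 0.05 and none called by DESeq2. Cd74 read 6.09 to 14.2 CPM with saline (median 8.03) and 2.80 to 14.3 CPM with gardiquimod (median 8.51), and the groups overlapped throughout. Its log2 difference was -0.18 ± 0.30, with a 95% interval of -0.80 to 0.45, and that of H2-Eb1 was -0.02 ± 0.26 (-0.56 to 0.52). Both intervals lie below the change fitted in males. The difference between the sexes' responses, females minus males, was -1.52 ± 0.44 for Cd74 (adjusted p = 0.144), -1.32 ± 0.44 for H2-Aa, -1.45 ± 0.50 for H2-Ab1 and -1.35 ± 0.39 for H2-Eb1 (adjusted p = 0.141). edgeR called none of the 10 and 0.00581% of all genes in that comparison, while DESeq2 called H2-Eb1 (adjusted p = 0.0356). The 4 genes just named had an unadjusted p under 0.05, as had 2796 of the 17218 genes tested. Averaged over the sexes, none was called by edgeR or DESeq2, with 0.215% of all genes called by edgeR. An unadjusted p under 0.05 was found for 1116 of the 17218 genes tested and for 6 of the 10. These 6 were Cd74, the 3 chains, H2-DMb1 (0.26 ± 0.12) and Cd40 (0.53 ± 0.20, adjusted p = 0.663), and Cd40 differed by 0.55 ± 0.27 in females alone.

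The starting point of the sexes differed in the same genes. Saline females had Cd74 at 9.42 ± 3.28 CPM against 4.25 ± 1.75 CPM in saline males (SD, n = 7 each), and 6 of 7 females lay above the highest male. The log2 difference was 1.15 ± 0.32 for Cd74, 1.04 ± 0.32 for H2-Aa, 1.32 ± 0.37 for H2-Ab1 and 1.13 ± 0.29 for H2-Eb1. edgeR called none of the 10, against 0.43% of all genes called, with H2-Eb1 nearest at an adjusted p of 0.0775. The 4 genes just named had an unadjusted p under 0.05, as had 1405 of the 17218 genes tested. DESeq2 called Cd74, H2-Ab1 and H2-Eb1. The female animals were the younger ones, so sex and age cannot be told apart, and the gardiquimod and sex comparisons share the saline males.

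Of the genes around the pathway, the lists held 7 tested accessory genes of class II processing, 14 promoter factors and interferon gamma inputs to Ciita, 7 ligands that co-stimulate or inhibit T cells, and 8 genes of CD40 signalling. None was called with gardiquimod in either sex alone, nor in the difference between sexes. Averaged over the sexes, Ctss, the protease that trims the invariant chain, rose by 0.21 ± 0.05 on the log2 scale (edgeR adjusted p = 0.0365).

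In cultured microglia, myelin lowered the invariant chain and the peptide editor in each sex and genotype. Cd74, H2-DMa, H2-DMb1 and Cd83 fell in all 4 comparisons of myelin with DMSO, and Cd86 rose in 3 of them. Cd74 read 94.1, 97.0 and 94.2 CPM in male WT cells given DMSO and 39.1, 35.8 and 36.3 CPM in those given myelin. In female WT cells it read 77.4, 79.3 and 77.1 CPM with DMSO and 30.8, 30.6 and 31.4 CPM with myelin. All myelin libraries lay below all DMSO libraries of the same sex and genotype. Such groups did not overlap, in either direction, for 46.4% to 49.3% of all genes tested. The log2 change was -1.36 ± 0.05 in male WT, -1.33 ± 0.06 in female WT, -1.21 ± 0.06 in male KO and -1.22 ± 0.06 in female KO cells (SE, edgeR adjusted p from 1.0e-28 to 2.4e-23), or 0.390 to 0.431 of the DMSO level. Of the 9 tested genes, 6 were called in male WT cells, where 39.3% of all genes were, and 5 in male KO cells, where 38.2% were. In female WT cells 5 were called against 40.4% of all genes, and in female KO cells 6 against 41.2%. Myelin thus moved a large part of all genes, and the members' counts are read against that.

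**Figure D3:**
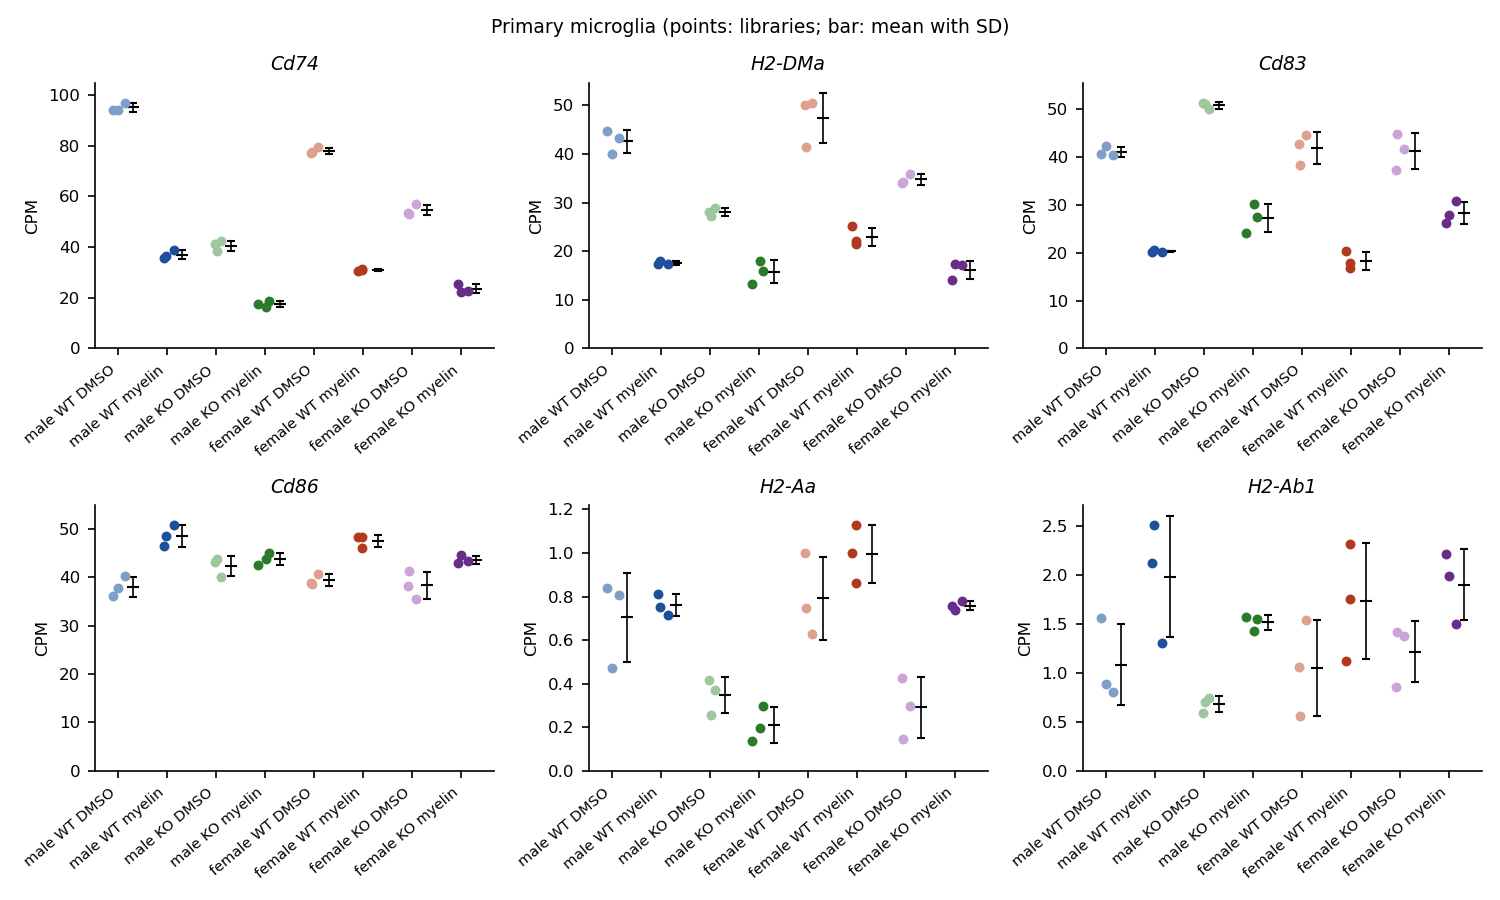
Levels (vertical, CPM) of 6 genes in primary microglia by sex, genotype and treatment (horizontal), 3 libraries a group as points with the mean and SD beside them. Cd74, H2-DMa and Cd83 drop with myelin in every pair of groups, Cd86 lies between 38.1 and 48.6 CPM on average, and H2-Aa and H2-Ab1 reach at most 2.51 CPM in any library.

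H2-DMa, the alpha subunit of the peptide editor, went from 40.02, 43.3 and 44.7 CPM to 17.4, 17.3 and 18.1 CPM in male WT cells and from 41.5, 50.6 and 50.1 CPM to 21.6, 25.1 and 22.1 CPM in female WT cells. It fell by 1.28 ± 0.08 and 1.05 ± 0.08 on the log2 scale in male and female WT cells, and by 0.82 ± 0.09 and 1.10 ± 0.09 in male and female KO cells. Its partner H2-DMb1 fell far less, by 0.24 to 0.29 in the 4 comparisons, from group means of 28.3 to 32.3 CPM with DMSO to 23.2 to 27.3 CPM with myelin, and its call in male KO cells was lost in 2 of 6 fits without 1 library. With Ttr and Pdgfra levels as covariates the H2-DMb1 call was lost in female WT (-0.17, adjusted p = 0.151), male KO (-0.13, adjusted p = 0.355) and female KO cells (-0.01, adjusted p = 0.974). H2-DMb2, the paralog that shares sequence with H2-DMb1, was at 2.12 to 3.46 CPM with DMSO and fell by 1.85 ± 0.30 and 1.91 ± 0.29 in male and female WT cells.

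The class II chains were measured with far fewer counts than Cd74. H2-Ab1 rose with myelin in male WT cells, from 0.883, 0.805 and 1.55 CPM to 1.30, 2.13 and 2.51 CPM (log2 change 0.87 ± 0.34, adjusted p = 0.0339), and in male KO cells by 1.14 ± 0.37 (adjusted p = 0.0103). The first call rests on 13 to 40 counts per library and ended with DESeq2 (adjusted p = 0.0517), with no filter on low counts (adjusted p = 0.0528) and in 4 of the 6 fits without 1 library. In female WT and KO cells the H2-Ab1 differences of 0.71 ± 0.34 and 0.63 ± 0.33 were not called, though the first became called with the Ttr and Pdgfra covariates (1.05, adjusted p = 0.0427) and in 2 fits without 1 library. H2-Aa rose in female KO cells by 1.40 ± 0.47 (adjusted p = 0.0139), from 3 to 7 counts per library to 13 in each, a call lost when the second DMSO library was left out (adjusted p = 0.114) and with Ttr and Pdgfra levels as covariates (adjusted p = 0.315). H2-Eb1 was called in none of the 4. At this depth, changes in these chains under about the size of their intervals (for H2-Eb1 in male WT cells, -0.50 to 1.18) were not detectable.

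Of the co-stimulatory genes, Cd83 fell and Cd86 rose. Cd83 went from 42.2, 40.3 and 40.6 CPM to 20.1, 20.1 and 20.4 CPM in male WT cells and from 38.2, 44.6 and 42.6 CPM to 17.8, 20.4 and 16.7 CPM in female WT cells. The log2 change was -1.02 ± 0.08 and -1.20 ± 0.08 there, and -0.89 ± 0.07 and -0.55 ± 0.07 in male and female KO cells. Cd86 went from 37.7, 40.3 and 36.2 CPM to 50.8, 46.4 and 48.5 CPM in male WT cells, a log2 change of 0.35 ± 0.06 (adjusted p = 1.4e-06). It rose by 0.27 ± 0.06 in female WT and 0.18 ± 0.06 in female KO cells, the latter a call lost in 2 of 6 fits without 1 library and with the covariates (adjusted p = 0.321), and in male KO cells the difference of 0.05 ± 0.06 was not called (adjusted p = 0.555). Cd40 was not called in any of the 4, with the lowest value in female WT cells at -0.68 ± 0.30 (adjusted p = 0.0658).

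**Figure D4:**
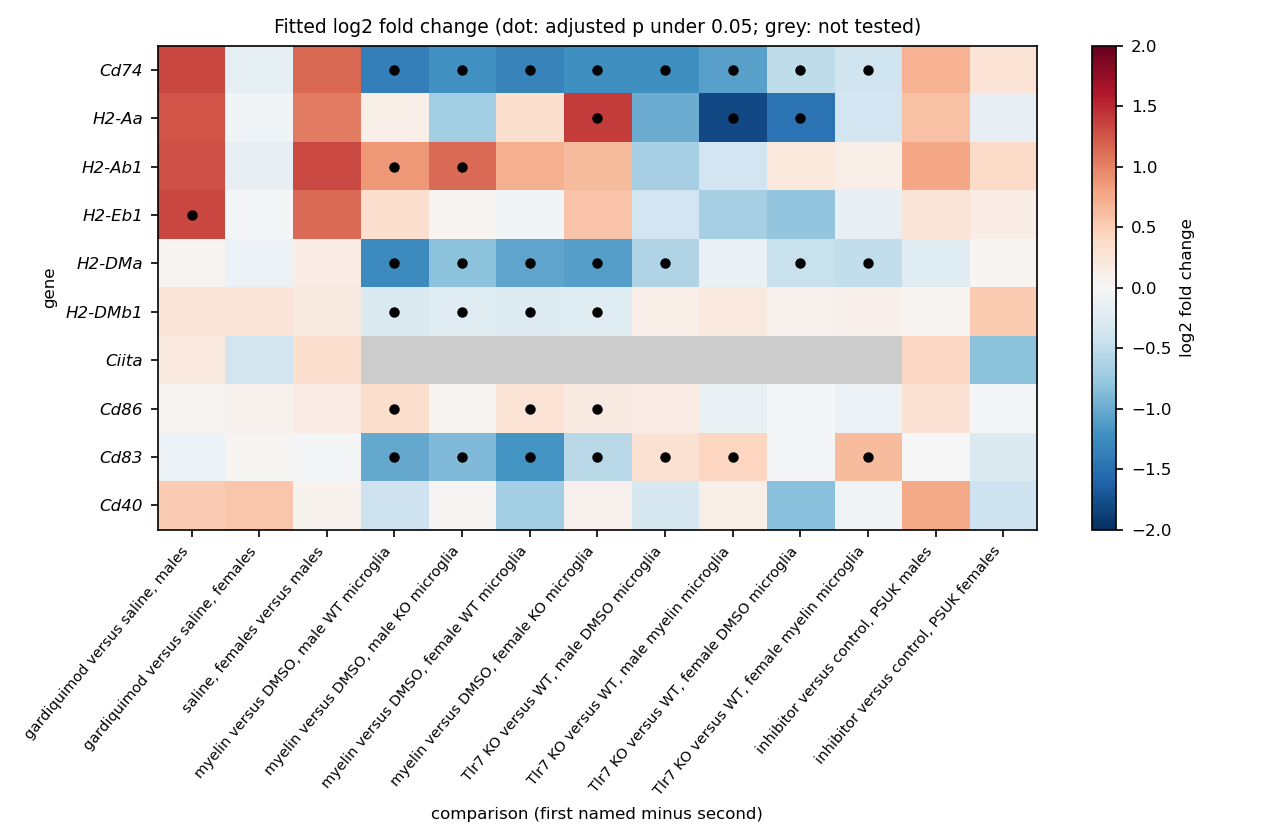
Fitted log2 fold changes (colour) of the 10 genes (vertical) in 13 comparisons (horizontal), with a dot where edgeR's adjusted p is under 0.05 and grey where the gene was not tested. The myelin columns are called lower for Cd74, H2-DMa, H2-DMb1 and Cd83, the knockout columns for Cd74, and the inhibitor columns hold no dot.

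Cd74 was lower in KO than in WT cells in every comparison, with the larger fitted difference in males. In DMSO-treated male cells Cd74 read 42.2, 41.04 and 38.4 CPM in KO against 94.1, 97.0 and 94.2 CPM in WT cells, and in females 53.7, 53.2 and 56.9 CPM against 77.4, 79.3 and 77.1 CPM. No KO library overlapped the WT libraries of its sex and treatment, as was so for 22.6% to 35.2% of all genes tested. The log2 change was -1.23 ± 0.05 in males and -0.51 ± 0.05 in females with DMSO, and -1.08 ± 0.06 and -0.40 ± 0.06 with myelin (edgeR adjusted p from 4.6e-26 to 4.3e-06). The difference between the sexes' knockout effects, a comparison added after these values were seen, was 0.72 ± 0.07 in DMSO cultures, females minus males (adjusted p = 3.3e-10). In myelin cultures it was 0.69 ± 0.09 (adjusted p = 4.1e-07). Among the 9 tested genes 2 were called in the first, where 7.53% of all genes were called, and 1 in the second, where 6.51% were. With Ttr and Pdgfra levels as covariates the Cd74 differences were 0.56 (adjusted p = 0.204) and 0.57 (adjusted p = 0.0563), which is not called.

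With Cd74 included, 3 of 9 tested genes were called in each of the 4 knockout comparisons. Of all genes, 20.9% were called in male and 11.9% in female cells given DMSO, and 20.6% and 7.28% in those given myelin. H2-DMa fell by 0.60 ± 0.08 in male and 0.45 ± 0.08 in female cells given DMSO, and by 0.50 ± 0.09 in female cells given myelin, and in male cells given myelin its difference of -0.14 ± 0.09 was not called. Cd83 went the other way. It was higher in KO than in WT male cells by 0.31 ± 0.07 with DMSO and 0.43 ± 0.08 with myelin, and higher in female cells given myelin by 0.63 ± 0.08, while in female cells given DMSO it differed by -0.02 ± 0.07. The DMSO effects of the sexes on Cd83 differed by -0.33 ± 0.10, females minus males (adjusted p = 0.0296), a call that DESeq2 did not share (adjusted p = 0.0639) and that was lost in 9 of 12 fits without 1 library and with the covariates (-0.06, adjusted p = 0.988). H2-Aa fell in female cells given DMSO (-1.47 ± 0.47, adjusted p = 0.0301) and male cells given myelin (-1.81 ± 0.51, adjusted p = 0.00629), on 2 to 19 counts per library. The first of these was lost with DESeq2 (adjusted p = 0.0573), with no filter (adjusted p = 0.0819) and in 4 of 6 fits without 1 library. With the Ttr and Pdgfra covariates both were lost (adjusted p = 0.167 and 0.621). H2-DMb1, Cd86, Cd40, H2-Ab1 and H2-Eb1 were not called in any of the 4. Under other settings H2-DMb1 became called higher in male KO cells given myelin (0.22 with no filter, adjusted p = 0.0304). Cd86 became called lower there with only the groups compared (-0.15, adjusted p = 0.0437), and higher in male KO cells given DMSO in 2 of 6 fits without 1 library.

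Markers of other cells differed between the culture groups. The sum of 5 oligodendrocyte markers was higher with myelin in each sex and genotype, with medians of 169 and 543 CPM (DMSO and myelin) in male WT, 185 and 570 CPM in male KO, 207 and 625.2 CPM in female WT and 143 and 664 CPM in female KO cells. The 5-gene astrocyte sum had lower medians with myelin, from 28.3 to 40.4 CPM with DMSO and from 16.4 to 27.3 CPM with myelin, and overlapped in female WT cells. The part of these markers in the myelin results was not tested. The choroid plexus sum was 161 to 289 CPM in male WT and 8.18 to 31.4 CPM in male KO cells given DMSO, and 111 to 190 CPM in female WT and 58.97 to 670 CPM in female KO cells. The sum of 8 border macrophage markers, most of it Pf4 and Mrc1, was 1428 to 1535 CPM in male WT and 1052 to 1079 CPM in male KO cells given DMSO, and 1464 to 1484 and 978 to 1023 CPM in the females. With myelin this sum was lower in each sex and genotype. It was then 1181 to 1204 CPM in male WT and 936 to 950 CPM in male KO cells. In female WT and KO cells given myelin it was 1159 to 1198 and 857 to 892 CPM. Of the 7 dendritic cell markers, Flt3 and Cd209a had no count in any culture group, but the sum of all 7 was 14.2 to 25.6 CPM. The B cell marker sum did not exceed 0.448 CPM. Microglia markers summed to 2994 to 3097 CPM in male WT and 2938 to 3016 CPM in male KO cells given DMSO, and to 2203 to 2252 CPM in male WT cells given myelin. With Ttr and Pdgfra as covariates Cd74 stayed called lower in all 4 myelin and all 4 knockout comparisons, while the higher Cd83 in male KO cells lost its call, at 0.09 in DMSO (adjusted p = 0.845) and 0.21 in myelin cultures (adjusted p = 0.673). The part of the border macrophage markers in the microglia results was not tested.

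Whether the response to myelin depends on Tlr7 was asked with the interaction of treatment and genotype. For Cd74 the response of KO minus that of WT cells was 0.15 ± 0.08 in males (95% interval -0.02 to 0.31, adjusted p = 0.482) and 0.12 ± 0.08 in females (-0.05 to 0.28, adjusted p = 0.701), so the 4 responses of Cd74 to myelin were not shown to differ by genotype. In males, 2 of 9 tested genes were called, where 2.56% of all genes were: the fall of H2-DMa was smaller in KO cells (0.46 ± 0.12, adjusted p = 0.0258) and the rise of Cd86 was smaller (-0.30 ± 0.08, adjusted p = 0.0284). In females, 1 of 9 was called, where 0.919% of all genes were: the fall of Cd83 was smaller in KO cells by 0.65 ± 0.11 (adjusted p = 1.5e-04). Leaving out 1 library of the comparison ended the H2-DMa call in 5 of 12 fits and the Cd86 call in 8 of 12, and never that of Cd83.

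In WT cells the sexes were compared at baseline. Cd74 was lower in female than in male cells given DMSO, by 0.29 ± 0.05 on the log2 scale (adjusted p = 1.0e-04), and was the only one of the 9 called, where 3.7% of all genes were. With Ttr and Pdgfra as covariates the difference was -0.19 (adjusted p = 0.751). The sexes' responses to myelin differed for none of the 9 genes by edgeR or DESeq2, with none at an unadjusted p under 0.05, where 0.0415% of all genes were called.

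The pathway genes around the members moved widely in the cultures. With myelin, 4 of 8 tested class II accessory genes fell and 3 rose in WT cells of each sex, and 3 fell and 2 rose in KO cells of each sex, where 39.3% and 40.4% of all genes were called in male and female WT and 38.2% and 41.2% in male and female KO cells. Ctsl, a lysosomal protease, rose by 0.52 to 0.62 and Lgmn, which opens the invariant chain for further cleavage, by 0.18 to 0.28, whereas March1, the ubiquitin ligase that removes class II and Cd86 from the surface, fell by 0.21 to 0.56. Of 14 promoter factors and interferon inputs, 6 or 7 fell and 3 or 4 rose in each group, against the same shares of all genes: Socs1, a feedback inhibitor of cytokine signalling, rose by 0.54 to 0.81, while Irf1 fell by 0.37 to 0.76 and the receptor chain Ifngr1 by 0.47 to 0.61. Rfx5, the DNA-binding part of the X box complex, fell in 3 of the 4, by 0.50 to 0.75.

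Among ligands for T cells, the inhibitory ligand Cd274 rose with myelin in all 4 comparisons, by 0.94 ± 0.04 in male WT and 0.45 ± 0.04 in male KO cells, and Vsir (-0.54 to -0.61) and Icosl (-0.50 to -1.14) fell. Cd274, Vsir and Icosl are examples from their list, in comparisons where 38.2% to 41.2% of all genes were called. In the 4 knockout comparisons 7.28% to 20.9% of all genes were called. Socs1, Irf1 and Ctss, given next, are examples from their lists. How many genes of each list were called there in each direction is not given here. Socs1 was lower in KO cells in all 4, and Irf1 fell by 0.26 to 0.72 in all 4. Ctss was higher in KO cells in all 4 comparisons, by 0.10 to 0.36. With myelin, the median log2 change over the accessory genes lay near 0, between -0.09 and 0.03, against -0.01 to 0.01 over all genes tested.

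In the PSUK+ hippocampus none of the 10 genes was called by edgeR with the unnamed inhibitor, in either sex, in their mean or in the difference between sexes. edgeR called 0.105% of all genes in males, 0.0876% in females, 0.0117% in the mean and 2.41% in the difference. Unadjusted p was under 0.05 for none of the 10 in males and in the mean, for Ciita and Cd83 in females, and for Ciita in the difference, and DESeq2 called none in any of these. In males Cd74 read 3.62, 3.13 and 4.06 CPM in controls and 3.79 to 7.59 CPM with the inhibitor (median 6.18), so that 5 of 6 treated libraries lay above the highest control. The log2 difference was 0.69 ± 0.54 with a 95% interval of -0.45 to 1.83, which does not exclude a change of the size fitted for gardiquimod in males. Without the 2 male inhibitor libraries that hold Xist it was 0.74 ± 0.60.

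In females Cd74 read 3.91, 4.999 and 7.39 CPM in controls and 3.90, 1.66, 4.22, 19.5 and 3.29 CPM with the inhibitor. A single library, the fourth, lay above the controls, and its H2-Aa (4.74 CPM), H2-Ab1 (5.03 CPM) and H2-Eb1 (4.39 CPM) were also the highest of the group. Its label gives 6.85 months, as for 1 control library and 1 other inhibitor library. The Cd74 difference of 0.27 ± 0.53 over all libraries became -0.73 without it, and neither is called. Cd83 read 18.4, 16.9 and 16.6 CPM in female controls and 13.7, 14.3, 12.6, 15.3 and 14.5 CPM with the inhibitor. These groups did not overlap, as was so for 6.19% of all genes tested, and the log2 difference of -0.29 ± 0.11 was not called (adjusted p = 0.30). Ciita had a log2 difference of -0.82 ± 0.36 (adjusted p = 0.39), from 0.916, 1.29 and 2.57 CPM to 0.651 to 1.21 CPM.

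**Figure D5:**
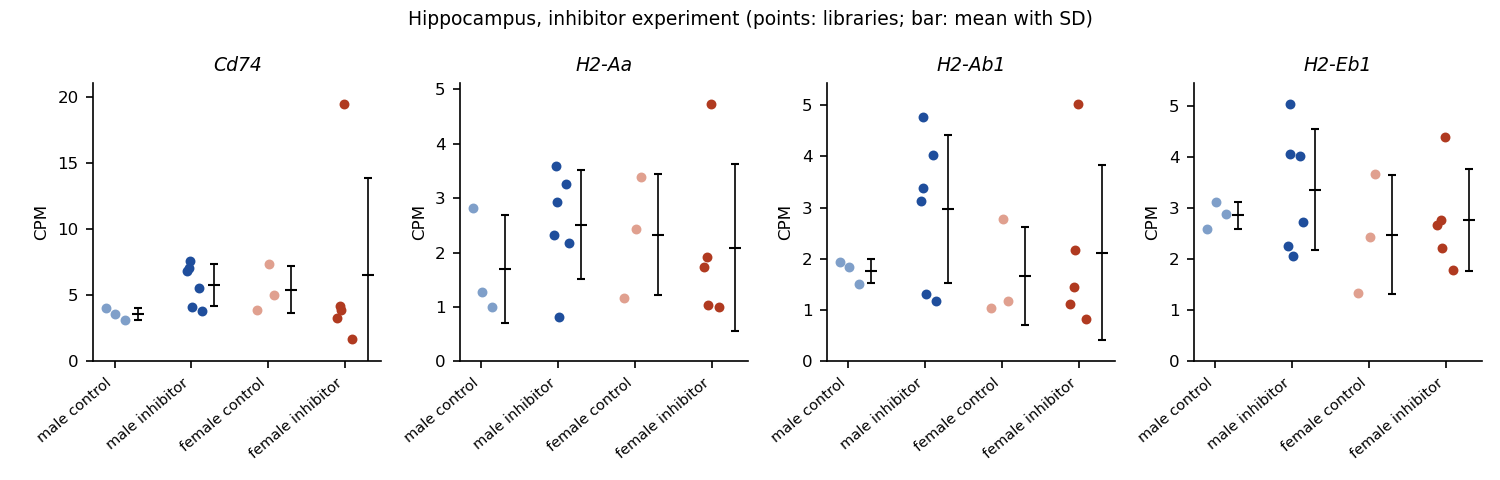
Levels (vertical, CPM) of Cd74, H2-Aa, H2-Ab1 and H2-Eb1 in PSUK+ hippocampus by sex and treatment (horizontal), 3, 6, 3 and 5 libraries as points with the mean and SD beside them. The groups overlap in every panel, and 1 female inhibitor library stands at 19.5 CPM for Cd74.

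The pathway genes held no call with the inhibitor in either sex, and only Rfxap, a subunit of the X box complex, differed between the sexes' responses (0.94 ± 0.19, adjusted p = 0.021). Choroid plexus markers differed between these groups: the sum was 158 to 2270 CPM in female controls and 4243 to 5927 CPM with the inhibitor, and 4363 to 4622 CPM in male controls and 226 to 6387 CPM with it. Border macrophage markers summed to 6.36 to 9.63 CPM in male controls and 8.79 to 18.4 CPM in inhibitor males, and in females the medians were 10.1 CPM in controls and 8.27 CPM with the inhibitor. With Ttr as covariate the Cd74 difference was 0.74 in males (adjusted p = 0.441) and 0.02 in females (adjusted p = 0.993), and no gene of the 10 became called. The part of the border macrophage markers in the inhibitor comparisons was not tested.

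Within groups, Cd74 moved with the class II chains from library to library in hippocampus. Over the 28 libraries of the gardiquimod experiment, after subtracting each group's mean log2 level, Cd74 and the mean of H2-Aa, H2-Ab1 and H2-Eb1 had a Pearson r of 0.94 and a Spearman rho of 0.91 (permutation within groups, adjusted p = 0.00041 for each, over 41 relations computed, and the unadjusted 1e-05 is the smallest the permutations can give), and r was 0.91 without the 2 libraries farthest from the median. Over the 17 libraries of the inhibitor experiment r was 0.84 and rho 0.86 (permutation, adjusted p = 0.0057 and 0.004), and r was 0.78 without the 2 farthest. In the 24 microglia libraries r was 0.36 and rho 0.42 (permutation, adjusted p = 0.36 and 0.28). Ciita, their regulator, had r = 0.18 with Cd74 in the gardiquimod experiment (permutation, adjusted p = 0.64) and r = 0.48 in the inhibitor experiment (adjusted p = 0.087).

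The border macrophage sum also moved with Cd74 within groups in the gardiquimod experiment (r = 0.69, rho = 0.68, permutation, adjusted p = 0.0029 and 0.004), with r = 0.62 without the 2 farthest libraries. The microglia sum (r = -0.21, rho = -0.22, adjusted p = 0.59 and 0.62) and the choroid plexus sum (r = 0.36, rho = 0.21, adjusted p = 0.31 and 0.62) did not pass the threshold. The monocyte and neutrophil sum (r = 0.54, rho = 0.45) and the B cell sum (r = 0.47, rho = 0.46) came nearer to it (permutation, adjusted p = 0.072 and 0.17 for each). For the dendritic cell and the T and NK cell sums r was 0.01 and 0.07. In the inhibitor experiment the border macrophage sum had r = 0.71 and rho = 0.54 (permutation, adjusted p = 0.28 and 0.26). In microglia it had r = -0.24 and rho = -0.32 (permutation, adjusted p = 0.59 and 0.53).

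The genes whose log2 CPM followed the mean of Cd74 and the chains most closely, among those with a mean of at least 4 CPM, differed between materials. In the gardiquimod experiment they were Perp, Tmem176b, Bmp7, Thbs1, Fzd7 and Tgfbi, with r from 0.86 to 0.79 over 28 libraries and 12519 candidate genes. In the inhibitor experiment they were Tgfbi, Spp1, Ttc38, Arhgap17, Bmp7 and Bmp6, with r from 0.80 to 0.77 over 17 libraries. Bmp7 and Tgfbi were in both sets of 6. In microglia they were F10, Il21r, Cxcl2, Midn, Unk and Trafd1, with r from 0.85 to 0.81 over 24 libraries. These correlations run across all groups and so share the groups' differences.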

How the data were processed

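The deposited tables hold raw counts per gene, 1 column per library. Per the labels' protocols, libraries were QuantSeq 3′ forward mRNA libraries. The extract protocol names microglia for all 69 libraries, though 45 are labelled hippocampus, and the molecule is labelled nuclear RNA. The submitters' processing notes list builds GRCm38 and mm10 and DESeq2 1.38.3. No source used here names the aligner, the counter or the annotation. A column of gene length in bases, deposited by the authors as another value, was not used.

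Each experiment was fitted by itself in edgeR 4.0.16 (R 4.3.3): filterByExpr, TMM scaling, robust glmQLFit over all groups, two-sided glmQLFTest, and Benjamini-Hochberg adjustment over 17218, 14468 and 17128 genes tested (gardiquimod, microglia, inhibitor). The fit was tried on simulated data for the first comparison of each experiment, and the outcome is not given here. Changes were placed only in genes with a mean of at least 4 CPM. That trial does not bear on those of the 10 below this level. No library pair of a group agreed within sampling noise (lowest chi-square per degree of freedom 2.26). The members, the pathway and marker lists and the comparisons were chosen with earlier results of these data known. The 10 members and the 6 genes most like the class II mean in each experiment are named. From the pathway lists only examples are named in microglia, and the CD40 signalling list has no microglia result here. Results of 1 further pathway gene are not reported here. Correlations used 100000 permutations within groups. Alternatives were DESeq2 1.42.0, RLE scaling, no filter, only the groups compared, each library left out, a replicate block, covariates (Ttr, Pdgfra, age, border macrophage sum) and 2 libraries left out.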

Additional observations from a re-analysis of the deposited data

Results flagged for a closer look

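Among the 10 genes in 6 groups of 5 to 7 libraries, 60 tests for a single distant library found 5, and chance gives about 1 in 20. In the female inhibitor group the fourth library stood far above the rest for Cd74, at 19.5 CPM against 4.22 CPM for the next, and for H2-Aa, at 4.74 CPM against 1.92 CPM. In the male inhibitor group the second library, 1 of those with Xist, was highest for H2-DMa at 14.3 CPM against 11.3 CPM. In the gardiquimod experiment, the seventh saline female was lowest for H2-Eb1 at 2.17 CPM against 4.45 CPM, and the fifth gardiquimod male was highest for Cd86 at 4.86 CPM against 3.30 CPM.

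In microglia, 6 differences between responses were called by edgeR. The myelin response of KO minus WT cells was 0.46 on the log2 scale for H2-DMa and -0.30 for Cd86 in males, and 0.65 for Cd83 in females. The knockout effect of females minus males was 0.72 for Cd74 and -0.33 for Cd83 with DMSO, and 0.69 for Cd74 with myelin. These last comparisons were added after the values were seen. No explanation was tested for any of these values.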

How the results depend on the processing

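No gene of the 10 reversed a call under any alternative. Over settings that keep all libraries, 1239 values of single genes kept their call or lack of it, 14 became called and 23 lost a call; over fits without 1 library these numbers were 2457, 16 and 43. Another 173 values that were not called in either fit changed sign.

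The number of the 10 genes called in males with gardiquimod was 4 with DESeq2 and 0 with no filter, with Ttr or with the border macrophage sum as covariate, against 1; without 1 library it ran from 0 to 4. The female minus male response gave 1 with DESeq2, against 0. Saline females against males gave 3 with DESeq2 and 1 with only the groups compared, against 0, and 0 to 1 without 1 library. In microglia, the male KO minus WT response gave 1 with no filter and 0 to 2 without 1 library, against 2. Ttr and Pdgfra as covariates gave 3 for myelin in female KO cells, 1 for KO against WT in male cells with myelin, 0 for females against males, and 0 for the female minus male knockout effects with DMSO and with myelin. That knockout effect gave 1 with DESeq2 and 1 to 2 without 1 library with DMSO, against 2, and 2 with no filter and 1 to 2 without 1 library with myelin, against 1. The causes were not tested.

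Over all genes, gardiquimod calls in males were 254 with DESeq2, 19 with only the groups compared, 3 with Ttr and 1 with the border macrophage sum, against 38, and 7 to 329 without 1 library. Inhibitor calls were 202 in males and 173 in females with DESeq2 and 329 and 0 with only the groups compared, against 18 and 15. The difference between sexes' inhibitor responses gave 1631 with DESeq2, 273 with no filter and 1 with Ttr, against 413. With Ttr and Pdgfra, calls for KO against WT were 532 and 842 (male and female DMSO) and 348 (male myelin), against 3027, 1721 and 2987.

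Whether the replicate numbers pair the microglia libraries is not settled. Within a sex and genotype, deviations correlated above 0.1 in 3 of 12 same-numbered pairs and in 1 of 24 pairs with different numbers. Between sexes or genotypes they did so in 13 of 72 and 11 of 144 pairs. With the replicate numbers as a block, the number of genes called for the female minus male knockout effect with myelin was 2, against 1. Cd86 became called for KO against WT in male DMSO cells (0.15, edgeR adjusted p = 0.0453). No paired analysis was possible because hippocampal libraries carry no shared numbers. Low depth limits Ciita, H2-Aa, H2-Ab1 and H2-Eb1 in microglia and Cd40 in hippocampus.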
